A study of Mus musculus with 6 samples.

Results

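The 9 genes described here, Mgp, Fbln1, Col5a1, Col1a1, Col1a2, Col3a1, Dcn, Lum and Foxc1, are genes of periocular mesenchyme and of collagen-rich stroma, of 19057 genes named on the array. They were chosen by name, as mesenchyme and stromal genes that would register tissue taken along with a dissected lens, and all 18 array probes annotated to them were read. RNA came from whole lens of mice at postnatal day 4, on 3 Illumina bead arrays from Tdrd7 null mice and 3 from Tdrd7 heterozygous mice, all on a strain mix labelled C57BL/6J and C3A.Blia. The heterozygous mice carry a mutant Tdrd7 allele too, so the comparison is with reduced gene dose and not with wild type, and no agent was given to either group. Whether an array holds the lenses of 1 mouse or of several is not stated in the labels, so a p-value here is set against array-to-array spread alone, which may be technical, and the small number of arrays limits the precision.

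The lens itself holds no fibroblasts: it is an epithelium over elongated fiber cells, wrapped in a basement membrane capsule rich in collagen IV. Periocular mesenchyme, largely of neural crest origin, surrounds it during development and gives rise to the corneal stroma and endothelium, the iris stroma and parts of the drainage angle. Fibrillar collagens I, III and V, and the small proteoglycans decorin and lumican that bind their fibrils, are known as products of such stromal cells. Foxc1 is a forkhead transcription factor of this mesenchyme, and its loss in mice disturbs formation of the anterior segment of the eye.

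Most probes of the set lay at background in these lenses. A probe is called detected on an array where its detection p-value, the share of negative control beads with as high a signal, is under 0.05, and was taken as measured when detected on at least 3 of the 6 arrays. Of the 18 probes 6 were measured, all 6 of them detected on every array, and they belong to 4 genes, Mgp, Fbln1, Col5a1 and Foxc1. This is 33.3% of the probes, close to the 32.3% of all 45281 probes on the array that met the same rule. The other 12 probes include every probe of Col1a1, Col1a2, Col3a1, Dcn and Lum, and 10 of them were detected on no array. Of the 9 genes 5 had no probe that met the rule, as was so for 10431 of all 19057 genes named on the array. That share is thus not particular to the set. Col1a2 passed the detection limit on a single array, and Col1a1, Col3a1, Dcn and Lum on none.

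**Figure D1:**
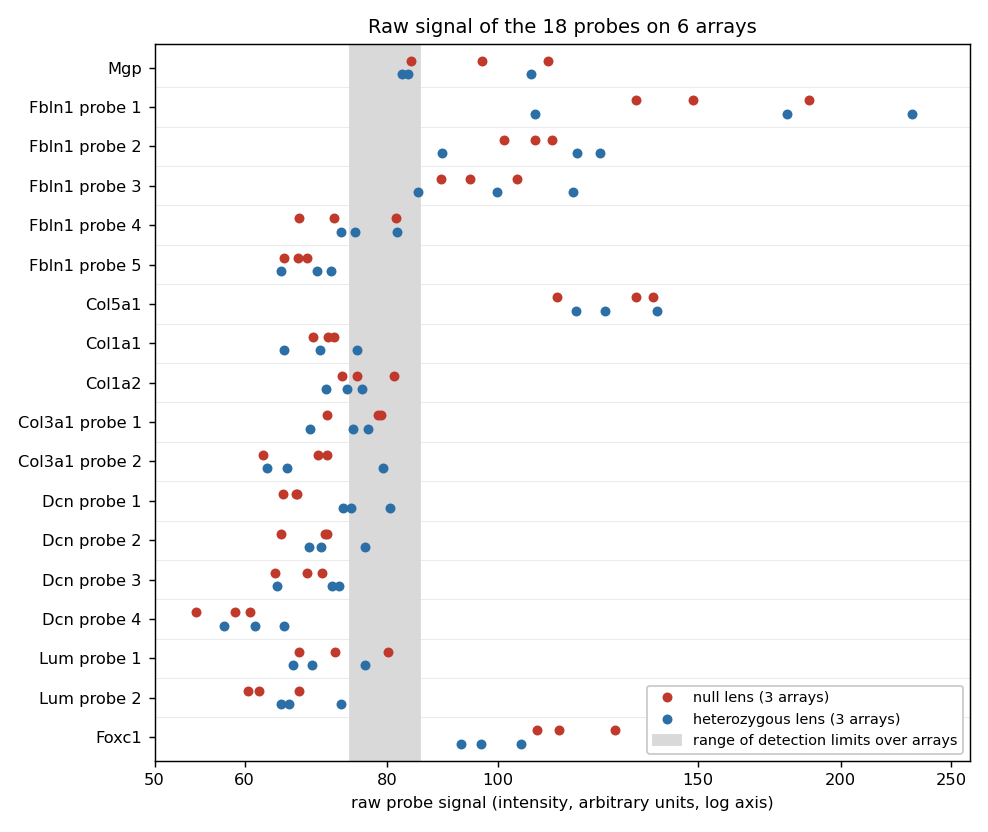
Raw signal (intensity, log axis) of each of the 18 probes on 3 null arrays (red, upper points) and 3 heterozygous arrays (blue, lower points), with probes of a gene numbered in order of mean signal. The grey band spans the detection limits of the 6 arrays, 74.3 to 85.4. Probes of Col1a1, Col1a2, Col3a1, Dcn and Lum lie within or below it, and Mgp, 3 probes of Fbln1, Col5a1 and Foxc1 reach above it.

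The genotype labels were checked first on the targeted gene. Tdrd7 had a raw signal of 1266.1, 1202.2 and 1103.4 on null arrays a to c, against 13045, 12472.9 and 13064.7 on heterozygous arrays a to c. On the log2 scale Tdrd7 fell by 3.48 in null lens (SE 0.153, limma adjusted p = 1.47e-05), and the groups lie far apart. Where its probe lies relative to the mutation was not analysed here. Array letters follow the order of the deposited columns and pair nothing. The share of probes detected on an array ran from 30.7% to 34.8%. Null array b stood apart from the rest, with a correlation of 0.962 to 0.972 with the other arrays over the tested probes, against at least 0.984 among those other arrays, and heterozygous array c was lowest for red blood cell genes (median deviation of -1.22 from the mean of the 6 arrays, log2).

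Col1a1 encodes the alpha 1 chain of type I collagen, and its single probe had a raw signal of 68.9, 71.8 and 71 on null arrays a to c, against 75.3, 69.9 and 65 on heterozygous arrays a to c. Each of these values was below the detection limit of its own array. Col1a2, which encodes the partner chain, had 81.2, 75.3 and 73 on the null arrays, against 73.8, 76.1 and 70.7 on the heterozygous arrays. It passed the detection limit on null array a alone, by 0.9 units, with 0.0363 as its detection p-value. The 2 probes of Col3a1, the type III collagen of pliable connective tissue, lay between 62.2 and 79.4 on all arrays, and neither was detected on any. For these 4 collagen probes no fold between the groups is given, since both groups sit at background.

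Decorin and lumican, proteoglycans of collagen fibrils, were likewise at background. Dcn encodes decorin, which binds collagen fibrils and limits their width, and Lum encodes lumican, known for its part in the transparency of the corneal stroma. The 6 probes of Dcn and Lum had raw signals of 54.4 to 80.4, and the smallest detection p among their values was 0.0513. The brightest Dcn probe (ILMN_2596346) had 64.8, 66.7 and 66.5 on null arrays a to c, against 73.2, 80.4 and 74.4 on heterozygous arrays a to c. These groups of values do not overlap, with the null arrays lower, but each value lies below the detection limit of its array, so no change is read from them. After normalisation 3 untested probes of the set had groups that do not overlap: this one, and those of Col1a2 (4.61 to 4.79 on the null arrays, against 4.46 to 4.52 on the heterozygous arrays, log2) and of Col3a1 (ILMN_1258629, 4.57 to 4.73 against 4.45 to 4.55) with the null arrays higher. All 3 lie at background, and in raw signal the groups of the Col1a2 and Col3a1 probes overlap. Among tested probes of the whole array 10.9% had groups that do not overlap. The share among untested probes was not worked out, so nothing is read from this count. The brighter Lum probe (ILMN_3001540) had 80.2, 72 and 66.9 on the null arrays, against 66.2, 76.5 and 68.7 on the heterozygous arrays, with overlapping groups. At this detection limit no transcript of Dcn or Lum could be told from background in either genotype, which bounds their level and does not show that they are absent.

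Col5a1 was the only collagen of the 9 genes to meet the rule for measured probes. It encodes a chain of type V collagen, a minor fibrillar collagen that starts and narrows type I fibrils. Its raw signal was 137, 112.8 and 132.3 on null arrays a to c, against 138.1, 124.3 and 117.1 on heterozygous arrays a to c. The groups overlap over nearly their whole range, with the lowest raw value on null array b and the highest on heterozygous array a. Col5a1 differed by 0.02 on the log2 scale, null minus heterozygous (SE 0.185, 95% interval -0.39 to 0.44, limma adjusted p = 0.993). The sign turned when any of null array a, null array c or heterozygous array b was left out, with values of -0.08 to 0.20 over the arrays left out in turn.

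Fbln1 encodes fibulin-1, a secreted glycoprotein of basement membranes and elastic fibers, and had 3 measured probes of 5. The brightest (ILMN_2870672) had a raw signal of 148.4, 132.3 and 187.8 on null arrays a to c, against 230.9, 179.3 and 107.8 on heterozygous arrays a to c. Its highest and its lowest value both lie in the heterozygous group, so the spread within that group (SD 61.8) exceeds the difference between the means of 156.2 and 172.7. A second probe (ILMN_2497957) had 107.8, 111.6 and 101.3 on the null arrays, against 122.9, 117.3 and 89.4 on the heterozygous arrays. The third (ILMN_2449644) had 104, 89.2 and 94.5 on the null arrays, against 116.4, 99.9 and 85.1 on the heterozygous arrays. In raw signal all 3 probes were highest on heterozygous array a and lowest on heterozygous array c, so the groups overlap for each.

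None of the Fbln1 probes passed the test. On the log2 scale, null minus heterozygous, the brightest differed by -0.12 (SE 0.346, 95% interval -0.89 to 0.66, limma adjusted p = 0.982), ILMN_2497957 by 0.01 and ILMN_2449644 by -0.05. Without heterozygous array a the brightest probe gave 0.21, and without null array b it gave 0.08, so the sign rests on single arrays. The remaining probes of Fbln1 were at background: ILMN_2728985 was detected on null array b alone and ILMN_2602770 on no array. Which Fbln1 transcript each probe reads was not analysed here.

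Mgp encodes matrix Gla protein, a secreted inhibitor of calcification made by cartilage, vessel walls and stroma. Its raw signal was 110.8, 96.9 and 84 on null arrays a to c, against 83.5, 107 and 82.5 on heterozygous arrays a to c. On heterozygous array a this was only 0.6 units over the detection limit. The groups overlap, since heterozygous array b is higher than null arrays b and c. Mgp differed by 0.31 on the log2 scale, null minus heterozygous (SE 0.255, 95% interval -0.26 to 0.89, limma adjusted p = 0.964), with values of 0.11 without null array a and 0.56 without heterozygous array b.

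**Figure D2:**
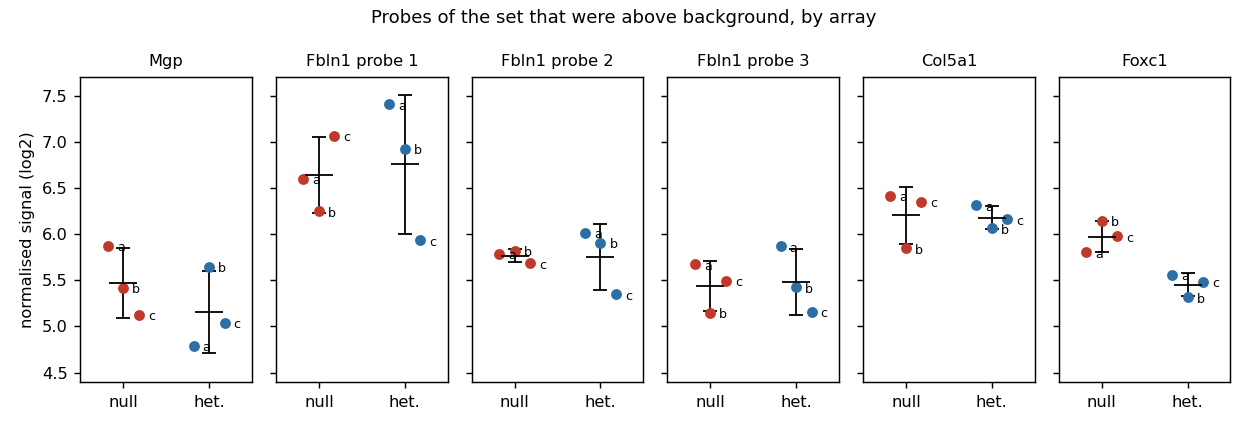
Normalised log2 signal of the 6 probes above background, for null arrays a to c (red, left) and heterozygous arrays a to c (blue, right), with the mean and SD of 3 arrays. Foxc1 is the one probe whose 3 null values (5.80 to 6.14) lie above all 3 heterozygous values (5.31 to 5.56).

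Foxc1 was the only measured gene of the set whose groups did not overlap, and it did not pass the test. Its raw signal was 108.2, 126.7 and 113.2 on null arrays a to c, against 104.9, 96.8 and 92.9 on heterozygous arrays a to c. Every null array was above every heterozygous array, though null array a (108.2) and heterozygous array a (104.9) lay close together. The signal exceeded the detection limit of its array by 27.9, 47.9 and 38.9 units on the null arrays, against 22, 11.4 and 15.2 units on the heterozygous arrays. Normalised signal averaged 5.97 ± 0.17 in null lens and 5.45 ± 0.13 in heterozygous lens (log2, SD, n = 3 each). Foxc1 differed by 0.52 on the log2 scale, null minus heterozygous (SE 0.158, 95% interval 0.17 to 0.88 before adjustment, unadjusted p = 0.00849, limma adjusted p = 0.964).

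Few of these probes stood out by any of the rules used. Over the 14636 tested probes 0.0137% passed at an adjusted p under 0.05, and 0 of the 6 probes of the set did. At an unadjusted p under 0.05 the share of all tested probes was 4.11%, and 1 of the 6 probes, that of Foxc1, was among them. Groups did not overlap for 10.9% of all tested probes, 5.43% with the null arrays higher, and again Foxc1 was 1 of the 6. The median log2 difference of the 4 measured genes was 0.17, with 3 higher and 1 lower, and ran from 0.02 without null array a to 0.27 with another array left out, beside a median of -0.01 with 4123 higher and 4503 lower over all 8626 tested genes. In bulk tissue a difference of this kind cannot tell more cells of a type from more RNA per cell.

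Across 16 alternative settings the Foxc1 difference was positive in 16, ran from 0.25 to 0.61, and kept an adjusted p of 0.276 or more. Since its groups do not overlap, settings that only leave out or weight arrays could not turn that sign. Their agreement in sign therefore adds no support. The lowest Foxc1 value, 0.25, came from the authors' normalised table. Foxc1 differed by 0.43 without null array b and by 0.54 without heterozygous array c. Foxc1 is known to be active also in endothelium and in the mural cells of vessels, so the vascular genes are given beside it. Of 10 measured genes of endothelium and pericytes, of 13 on the array, 8 were higher and 2 lower with a median of 0.28. None passed, and 3 had groups that did not overlap after normalisation, beside 11.4% of all 8626 tested genes. Those 3, Rgs5, Emcn and Flt1, were detected on all 3 null arrays but on at most 1 heterozygous array each. They thus met the detection rule mainly through the group where they are higher. Their summed normalised signal was 858.3 to 1108 on the null arrays, against 766.9 to 932 on the heterozygous arrays, and the list was mixed in both detection and direction. The endothelial genes Egfl7, Esam, Cldn5 and Tek were detected on all 6 arrays, while Cdh5 was detected in 2 of 12 probe values and Tie1 in 0 of 6. Egfl7 differed by 0.16 (another probe -0.06), Esam by 0.40, Tek by -0.24 and Pecam1 by -0.10. Rgs5, a marker of pericytes, had a raw signal of 99.6, 121.4 and 110.6 on null arrays a to c, against 85.3, 85.2 and 72 on heterozygous arrays a to c. It was detected on 1 heterozygous array (log2 difference 1.08, SE 0.179, limma adjusted p = 0.362). The part of vessels in the Foxc1 difference was not tested.

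No pair of the measured genes had a correlation that passed the test across the arrays. Among the 6 pairs of Mgp, Fbln1, Col5a1 and Foxc1, each gene taken by its brightest probe, Pearson's r over the 6 arrays ran from -0.24 to 0.47. The highest was Fbln1 with Col5a1 (r = 0.47, exact permutation p = 0.343, Spearman's rho = 0.37, exact permutation p = 0.497), and after Benjamini-Hochberg adjustment over the 6 pairs no p was under 0.876. Leaving out the 2 arrays farthest from the median of Fbln1 gave r = 0.57 for that pair, and deviations from the group means gave r = 0.49. Mgp with Foxc1 had r = 0.09 (exact permutation p = 0.857, rho = 0.09, exact permutation p = 0.919), but r = -0.77 within the groups: normalised Mgp was highest in its group on null array a and on heterozygous array b, where Foxc1 was lowest in its group. Without the 2 arrays farthest from the median of Mgp the r over the arrays left, not centred on the groups, was -0.22.

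The remaining 4 pairs were no closer. Mgp with Fbln1 had r = -0.24 (exact permutation p = 0.646; rho = -0.26, p = 0.658) and Mgp with Col5a1 r = -0.09 (exact permutation p = 0.876; rho = 0.09, p = 0.919). Fbln1 with Foxc1 had r = -0.15 (exact permutation p = 0.761; rho = -0.03, p = 1) and Col5a1 with Foxc1 r = -0.14 (exact permutation p = 0.801; rho = 0.09, p = 0.919). Every adjusted p for rho was 1. Over 6 arrays, only a very strong correlation could be told from none, so weaker co-variation was not detectable here.

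Within Fbln1, where 3 probes read the same gene, r was 0.83 between ILMN_2870672 and ILMN_2449644 (exact permutation p = 0.0472, adjusted over 3 pairs 0.112; rho = 0.77, p = 0.103). It was 0.75 between ILMN_2870672 and ILMN_2497957 (exact permutation p = 0.075, adjusted 0.112; rho = 0.60, p = 0.242) and 0.63 between ILMN_2497957 and ILMN_2449644 (exact permutation p = 0.182, adjusted 0.182; rho = 0.37, p = 0.497). Without the 2 arrays farthest from the median the 3 values were 0.52, -0.27 and -0.29, so the likeness of the last 2 pairs rests on the arrays left out.

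**Figure D3:**
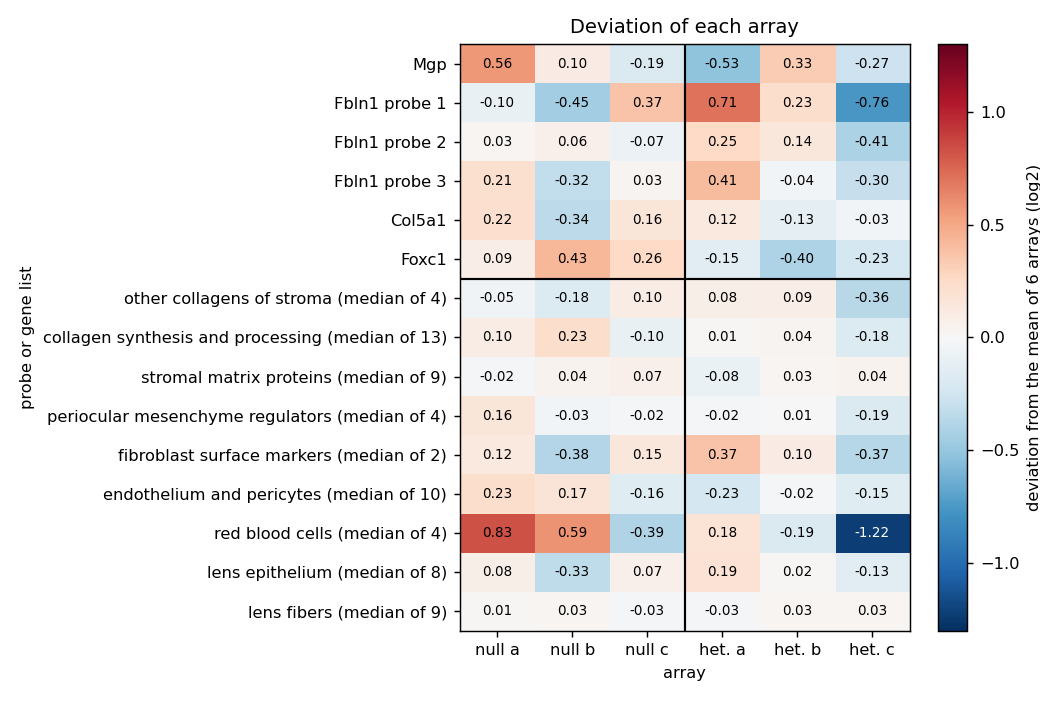
Deviation of each array from the mean of the 6 arrays (log2) for the 6 measured probes (above the line) and, as the median over the tested genes, for related gene lists (below the line), null arrays left and heterozygous arrays right. The brightest Fbln1 probe ranges from -0.76 on heterozygous array c to 0.71 on heterozygous array a, while Foxc1 is above 0 on the 3 null arrays and below 0 on the 3 heterozygous arrays.

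By mean deviation heterozygous array c was lowest for the set, though not for each gene. Mgp was lowest on heterozygous array a (-0.53), Foxc1 on heterozygous array b (-0.40) and Col5a1 on null array b (-0.345). Only Fbln1, by its brightest probe, was lowest on heterozygous array c (-0.76), where Col5a1 was at -0.03. All 4 measured genes were below their 6-array mean there, with a mean deviation of -0.32, against 2 of 4 on heterozygous arrays a and b. On null arrays a and c 1 of the 4 was below the mean, and on null array b 2 were, with mean deviations of 0.19, 0.15 and -0.06 on a, c and b. Red blood cell genes were lowest on heterozygous array c as well (-1.22), and the fibroblast surface markers were low on null array b (-0.38) and on heterozygous array c (-0.37). For lens epithelium genes the median deviation was -0.33 on null array b, against -0.13 on heterozygous array c, while that of lens fiber genes was between -0.03 and 0.03 on every array. The fiber median hides single genes: normalised Cryaa was 14.30 on null array b, against 15.11 to 15.35 on the other arrays. It therefore does not show that fiber content was constant. The part of these other tissues in the low values of the set was not tested.

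The genes most like the mean profile of the 4 measured genes were Iyd (r = 0.986), Ldha (0.985), Dusp6 (0.979), Itga3 (0.976), Slc30a10 (0.959) and Tenm2 (0.955), each over 6 arrays and out of 8622 genes compared. Of those genes 52, or 0.603%, had a correlation above 0.9. The 6 were picked as the highest of 8622 over only 6 arrays. How many genes would reach such values by chance was not worked out, so no co-variation is read from them. None of the 6 passed the test between genotypes. Dusp6, a phosphatase induced by growth factor signalling, had normalised signals of 7.52, 7.11 and 7.48 on null arrays a to c, against 7.22, 7.07 and 6.66 on heterozygous arrays a to c (log2).

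Genes that work with the set were read from lists drawn up by function, 1 probe per gene. Of all 19057 genes named on the array 8626 were measured, which is the background for the count measured in each list. Over all 8626 tested genes read this way 0.0232% passed at an adjusted p under 0.05, 4.01% had an unadjusted p under 0.05 and 11.4% had groups that did not overlap. Of 11 other collagens of stroma on the array 4 were measured, 2 higher and 2 lower in null lens. Their median log2 difference was 0.001, and 0 passed. Col2a1 differed by 0.20, Col16a1 by -0.13, Col15a1 by -0.18 and Col8a2, a collagen of Descemet's membrane, by 0.13, none of them detected on all 6 arrays. Col5a2, the usual partner chain of Col5a1, was detected by none of its 5 probes on any array.

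Enzymes that make and process collagen were, by contrast with the fibrillar chains, nearly all above background. Of 14 on the array 13 were measured, 8 higher and 5 lower in null lens with a median log2 difference of 0.13. None passed, 2 had an unadjusted p under 0.05 and the same number had groups that did not overlap. Some hydroxylases on this list also serve collagen IV, which lens cells secrete into the capsule. P4ha1, a prolyl hydroxylase of collagen, had a raw signal of 297.1, 323.2 and 359.4 on null arrays a to c, against 243.2, 256.9 and 233.7 on heterozygous arrays a to c. It was higher on every null array (log2 difference 0.51, SE 0.147, limma adjusted p = 0.964), but its other probe gave 0.19. Plod1, a lysyl hydroxylase, had 93.2, 98.7 and 87.1 on the null arrays, against 83.5, 92.2 and 69.6 on the heterozygous arrays (log2 difference 0.54, SE 0.188, limma adjusted p = 0.964). In raw signal its groups overlap, since heterozygous array b exceeds null array c, and after normalisation they do not. Pcolce, which enhances removal of the procollagen tail, differed by 0.315 and P3h1, a further prolyl hydroxylase, by 0.34, both highest on null array b. Other probes of P3h1 gave 0.15 and -0.12. Lox, which crosslinks collagen, was detected on no array.

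**Figure D4:**
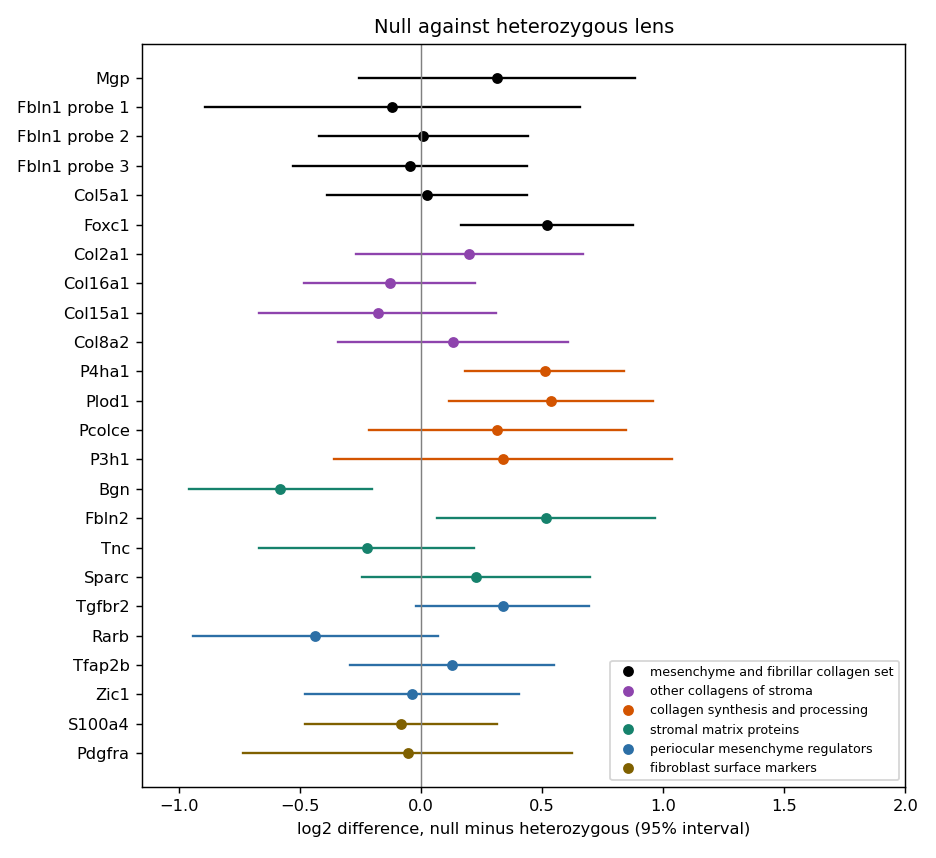
Log2 difference, null minus heterozygous, with its unadjusted 95% interval from limma for the 6 measured probes of the set (black) and the named genes of 5 related lists (colours). The intervals of Foxc1, P4ha1, Plod1 and Fbln2 lie above 0 and that of Bgn below 0, and no probe shown passed after adjustment over all tested probes.

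Proteins of the stromal matrix were split. Of 20 on the array 9 were measured, 6 higher and 3 lower in null lens with a median of 0.10. None passed, 2 had an unadjusted p under 0.05 and 1, Bgn, had groups that did not overlap. Bgn encodes biglycan, the closest relative of decorin, and had a raw signal of 140.3, 138.9 and 116.5 on null arrays a to c, against 164.6, 180.2 and 168.2 on heterozygous arrays a to c. Every null array was below every heterozygous array, as for 5.47% of all tested probes, in the direction opposite to Foxc1 (log2 difference -0.58, SE 0.169, limma adjusted p = 0.964). Fbln2, the relative of Fbln1, differed by 0.52 (SE 0.201, limma adjusted p = 0.964) and was detected on 3 null arrays and 1 heterozygous array. Tnc differed by -0.23, and Sparc, a matrix glycoprotein also made by lens cells, by 0.23 with its other probes at -0.31 and 0.08. Ogn, Igfbp5 and Mfap4 were bright and detected on all 6 arrays. Ogn, which encodes osteoglycin, a proteoglycan of the same family as decorin and lumican, had a raw signal of 3273.2, 2195.6 and 4055.9 on null arrays a to c, against 3344.7, 3353.8 and 3153.5 on heterozygous arrays a to c. Ogn differed by -0.105, with other probes at 0.53 and -0.37, Igfbp5 by 0.10 and Mfap4 by 0.13, none past the test. Postn, Fmod, Omd, Aspn, Kera, Fbln5, Efemp1 and Mfap5 were detected on no array by any probe. Kera, which encodes the keratocan of corneal stroma, belongs to the same proteoglycan family as Lum.

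Of 12 regulators of periocular mesenchyme on the array, Foxc1 left out, 4 were measured, beside 8626 of 19057 genes over the whole array. Of these regulators 2 were higher and 2 lower with a median of 0.04, and 0 passed. Tgfbr2, a receptor of transforming growth factor beta, was detected on the 3 null arrays and on none of the heterozygous ones. It thus met the detection rule only through the null group. With the heterozygous arrays raised to their lowest detected signal, its null mean was 1.17-fold higher. The limma adjusted p of its plain log2 difference was 0.964. Its raw groups overlap, with 77.2 on null array c against 83.4 on heterozygous array b. Rarb, a retinoic acid receptor, differed by -0.44, with another probe at -0.16, and Tfap2b by 0.13 and Zic1 by -0.04, each detected on 1 heterozygous array. Foxc2, the closest relative of Foxc1, was detected on 1 array of 6, and Twist1, Twist2, Six2 and Snai2 on none.

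Among 7 fibroblast surface markers on the array 2 were measured, both lower with a median of -0.07, and 0 passed. That direction rests on single arrays: the median was 0.10 without null array b and 0.10 without heterozygous array a, and -0.27 without heterozygous array c. Pdgfra, the receptor of platelet-derived growth factor that lens epithelial cells carry as well, had a raw signal of 400.9, 252.1 and 361.8 on null arrays a to c, against 461.8, 388.4 and 225 on heterozygous arrays a to c. Its highest array, heterozygous a, and its lowest, heterozygous c, were those of the brightest Fbln1 probe (log2 difference -0.06, SE 0.303, limma adjusted p = 0.992). S100a4 differed by -0.08. Fap and Dpt were detected on no array, Cdh11, Thy1 and Pdgfrb in 1 of their probe values each. Over the 5 stromal lists 32 genes were not measured, and 18 of those were detected on no array by any of their probes.

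Other tissue next to the lens was read in the same way. Red blood cell genes were the widest in spread, with 4 of 6 measured, 4 higher and 0 lower, a median of 0.71 and 0 passing, and a summed normalised signal of 461.5 to 1073 on the null arrays, against 311 to 706.8 on the heterozygous arrays. Hba-a1 differed by 0.86, Hbb-bs by 0.70, Hbb-bt by 0.71 and Slc4a1 by 0.12. Of vessels, Emcn was undetected on the heterozygous arrays. With those arrays raised to their lowest detected signal, its null mean was 1.24-fold higher. The limma adjusted p of its plain log2 difference was 0.964, and its raw groups overlap. Cldn5 differed by 0.705. Flt1 differed by 0.51 but was detected on 1 heterozygous array, so most of its heterozygous values are at background. Of corneal epithelium 3 of 7 were measured, with Upk1b, detected on 1 heterozygous array, at 0.53, Ecm1 at 0.41 and Tkt at -0.33 with other probes at 0.25 and 0.22, while the corneal keratin gene Krt12 was detected on no array. Of ciliary and eye muscle 3 of 7 were measured, with Acta2 at 0.345, Myl9 at 0.235 and Col9a1 at 0.03. Of macrophages 3 of 8 were measured, with Lyz1 at -0.15, Aif1 at 0.07 and Csf1r at 0.03. Of retina 2 of 5 were measured, Rbp3 at -0.23 and Crx. Crx, undetected on the heterozygous arrays, was 1.05-fold higher with those arrays raised in the way used for Emcn. The limma adjusted p of its plain log2 difference was 0.964, and its raw groups overlap. Of pigmented epithelium 1 of 7 was measured, Oca2 at -0.10. None of these genes passed.

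Lens genes were read beside these dim signals. All 8 lens epithelium genes and 9 of 10 lens fiber genes on the array were measured. Not all were bright: raw signals were 72.9 to 96.8 for Foxe3, 77.9 to 96.1 for Pax6 and 83.4 to 88.7 for Itm2a. Foxe3 and Itm2a were each detected on 2 of 3 heterozygous arrays. Of the epithelium genes 3 were higher and 5 lower with a median of -0.07, among them Foxe3 (0.32), Sfrp1 (0.26), the growth factor receptor gene Fgfr2 (-0.32, other probes 0.36 and 0.11) and Dkk3 (-0.24, other probes -0.11 and 0.03). Of the fiber genes 6 were higher and 3 lower with a median of 0.03, among them Cryab at -0.44, Cryaa at -0.34, Crygd at -0.18 (another probe 0.10) and Mip at 0.12, and 0 of either list passed. The raw signals of the measured probes of the mesenchyme set, 82.5 to 230.9, begin near the detection limits of 74.3 to 85.4.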

How the data were processed

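RNA was purified with a column kit and DNase, then labelled with biotin as cRNA, per the labels' protocols. The authors' raw table gives a linear intensity for every probe on every array, which was not normalised, with a detection p-value alongside, per the file headers. Which scanner software made it, and whether it subtracted background, no source used here states. A second deposited table holds intensities the authors normalised by a method those sources do not name. Its 6 columns carry replicate numbers, and each matches 1 raw column of its own genotype in rank; raw columns carry none. Raw medians were 69 to 76.6 per array.

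Raw intensities were processed with neqc of limma 3.58.1 in R 4.3.3, which fits background from the detection p-values, adds an offset of 16, applies quantile normalisation and takes log2. A probe was tested where its detection p was below 0.05 on 3 or more of the 6 arrays. The test was limma's lmFit and eBayes, two-sided and without covariates, with Benjamini-Hochberg adjustment over 14636 probes and a threshold of 0.05. Probe names came from the platform annotation (34885 of 45281 probes with 1 symbol, 18 with several, 10378 with none), and the gene table of assembly GRCm38.p6 changed 0 symbols. Each gene is represented by its brightest tested probe. For a gene undetected throughout a group, the fold compares the brighter group's mean with the dimmer group. Each dim array was raised to its lowest detected signal where its own was lower. Correlations have exact two-sided permutation p-values. The members, lists, tests and alternatives were chosen with earlier results of these data known. The genes named are Tdrd7, all probes of the set, up to 4 tested genes of smallest p per list and the 6 most like the set's mean profile; any other gene of the lists was named after its values were seen. The limma fit between the groups was tested on simulated data. Alternatives varied background, normalisation, the authors' values, filter, variance model, the arrays used and a block for replicate number.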

Additional observations from a re-analysis of the deposited data

How the results depend on the processing

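No probe of the set passed under any of 16 alternatives for the genotype difference, and Mgp and Foxc1 kept their sign in all 16. For Foxc1, whose groups do not overlap, leaving out or weighting arrays could not have turned the sign. With each array left out in turn Mgp ran from 0.114 to 0.561, Foxc1 from 0.433 to 0.611, the Fbln1 probe ILMN_2870672 from -0.527 to 0.207, ILMN_2497957 from -0.197 to 0.139 and ILMN_2449644 from -0.21 to 0.146, and Col5a1 from -0.081 to 0.203. The Fbln1 probe ILMN_2497957, at 0.009, turned to -0.002 without background correction and with normexp at offset 50, to -0.007 with the authors' values with or without the replicate block, to -0.038 with array weights and to -0.223 without null array b and heterozygous array c. With array weights ILMN_2449644 gave 0.104. The number of called probes, 2 in all, was 1 without the filter, 13 with array weights, 1 to 4 with an array left out and 1 on the authors' table with the replicate number as a block, against 2 on that table without it. Whether those numbers pair the arrays is not known. Same-numbered arrays had correlations of deviations of 0.158, -0.154 and -0.147, which cannot settle it with 3 arrays per group. The block changed no call of the set. The median of the 4 measured genes, 0.169, ran from 0.016 to 0.27 with an array left out, was 0.306 with array weights and lay between 0.076 and 0.08 without background correction, with normexp at offset 50 and on the authors' table. The median of fibroblast surface markers ran from -0.271 to 0.103 with an array left out. The median of collagen synthesis and processing genes was -0.067 without null array b and heterozygous array c. The median of stromal matrix genes was 0.033 without the filter, 0.011 without those 2 arrays, 0.036 when probes of a gene were averaged and -0.024 to 0.115 with an array left out. The median of mesenchyme regulators was -0.436 where detection on all 6 arrays was asked for, when Rarb alone was left, and -0.11 to 0.128 with an array left out. Correlations that turned sign were Mgp with Fbln1 (0.359) and Mgp with Foxc1 (-0.223) without the 2 farthest arrays, Mgp with Foxc1 within groups (-0.769), Fbln1 with Foxc1 (0.042) and Col5a1 with Foxc1 (0.088) with median scaling, and Col5a1 with Foxc1 (0.863) without the 2 farthest arrays. No correlation had an adjusted p under 0.525 in the 36 alternatives run. The cause of these shifts was not tested. The count of 6 measured probes was 6 with a detection p under 0.01, with detection on all 6 arrays and without null array b and heterozygous array c, and 8 when 1 array sufficed. These filters were chosen after seeing the data. Signals within a few units of the detection limit, as for Mgp, limit what can be told between the groups.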
